A study of Homo sapiens with 12 samples.

Results

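The 35 genes described here encode the enzymes of glycolysis, the carriers that bring glucose in and take lactate out, and a set of genes known to respond to low oxygen, and they were followed in leukaemia cells exposed to DMAG. They were chosen by gene symbol from a list made for this work, with earlier results of the same data known, and all 35 had an entry among the 19659 genes of the mRNA table. DMAG (a Di-O-methylellagic acid glucoside) comes from the plant Sanguisorba officinalis. The treated group was cells labelled HEL, a human erythroleukaemia line, grown in culture medium with serum and exposed to DMAG at 40 µg/ml for 3 days, with 3 RNA libraries and 3 small RNA libraries. The control group was the same line under the same culture description, with 3 libraries of each kind and with neither a vehicle nor a duration in its labels. The RNA libraries were made from total RNA after removal of ribosomal RNA. Levels are FPKM (fragments per transcript length and sequencing depth), summed here over the transcripts of each gene, so genes can be set side by side per length; the read depth behind them is unknown. Whether replicates were grown as separate cultures is not in the labels, so each p-value reflects the scatter of these libraries alone, which may be technical.

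Glycolysis splits glucose into pyruvate and yields ATP without oxygen; lactate dehydrogenase then turns pyruvate into lactate, which regenerates the NAD+ that the pathway consumes. Fast-growing blood and leukaemia cells are known for high glucose uptake and lactate release even when oxygen is present. HIF-1, a transcription factor made of HIF1A and ARNT, is stabilised when oxygen is scarce because prolyl hydroxylases of the EGLN family then stop marking HIF1A for destruction, and it is known to induce most glycolytic genes, the glucose carrier SLC2A1 and the hypoxia genes described here.

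Some properties of the libraries bear on these values. The FPKM of all mRNAs summed to 328350, 332916 and 329468 in the DMAG libraries and to 348907, 357821 and 356028 in the controls. Of 22 erythroid and megakaryocyte markers, 16 stayed under 1 FPKM in every library; GATA1 reached at most 0.142 FPKM and the platelet integrin ITGA2B at most 0.330 FPKM. The third DMAG library stood apart in globin mRNA, with HBB at 1367 FPKM, HBA1 at 375 FPKM, HBA2 at 199.6 FPKM and the haem synthesis gene ALAS2 at 4.04 FPKM, all at most 0.0935 FPKM in each other library, and the summed level of these markers was 5.74, 6.10 and 1953 FPKM in DMAG libraries against 4.52, 5.22 and 4.47 FPKM in controls. EPOR, the erythropoietin receptor, averaged 4.49 ± 0.131 FPKM in DMAG cells and 3.71 ± 0.270 FPKM in controls (SD, n = 3 each; limma adjusted p 0.031, a call lost in 5 of the 6 fits that left out a library, at 0.061 to 0.085). Granulocyte and monocyte markers, 14 genes, summed to 3647, 4164 and 3916 FPKM in DMAG libraries and 4515, 4211 and 4200 FPKM in controls, while the monocyte genes CD14, CD68 and CSF1R stayed at or below 0.503 FPKM. The labelled erythroid identity was thus not visible in these defining markers, and the part of the marker differences in the results that follow was not tested.

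DMAG-treated cells had less mRNA for many glycolytic enzymes and lactate carriers and more for a smaller set that included PKM and the glucose carrier SLC2A3. Of the 35 genes, 32 reached the mean of 0.5 FPKM needed for the test, 16 of them fell, 9 rose and 7 did not pass; ENO2, PFKFB4 and EGLN3 were below that level. The fall took in HK2, PFKL, PFKP, TPI1, PGK1, PGAM1, ENO1, LDHA, LDHB, SLC2A1, SLC16A1, SLC16A3, PDK1, BNIP3, VEGFA and P4HA1, and the rise HK1, PFKM, GAPDH, PKM, SLC2A3, PFKFB3, HIF1A, BNIP3L and NDRG1. The test was limma on log2(FPKM + 1) over all 10394 genes at that level, with Benjamini-Hochberg adjusted p under 0.05. Under the same rule 48.6% of all genes tested passed. The 9 of 32 that rose stand beside 22.4% higher over all genes, and the 16 of 32 that fell beside 26.1% lower. The same shares stand beside the counts of calls in each group of members and each list of genes below. Folds are ratios of mean FPKM, while log2 changes are on log2(FPKM + 1) and are smaller for genes of low level. The median log2 change was -0.35 over the 32 genes and -0.01 over all genes tested. In bulk RNA, fewer cells of a type and less RNA per cell cannot be told apart.

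The balance of calls depended on how libraries were scaled. With the values as deposited, 2333 genes were called higher and 2717 lower. With each library rescaled to the mean FPKM sum, a setting added after the data were seen that leaves the size of the filter and pseudocount as they were, 3221 of 10392 genes were called higher and 1862 lower, and the median of all genes moved by 0.09 on the log2 scale. Among the 32 members tested that rescaling gave 9 higher and 15 lower. Rescaling each library to a larger common sum, which also lowers the effective filter and pseudocount, gave 3435 higher and 1910 lower over 11203 genes, and 10 higher and 15 lower among 34 members. Scaling libraries to the same median over the tested genes gave 2465 higher and 2580 lower over 10394 genes, and 9 higher and 16 lower among 32 members. Without the third DMAG library, the one with globin mRNA, 8 members rose and 15 fell, GAPDH and PGAM1 no longer passing.

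**Figure D1:**
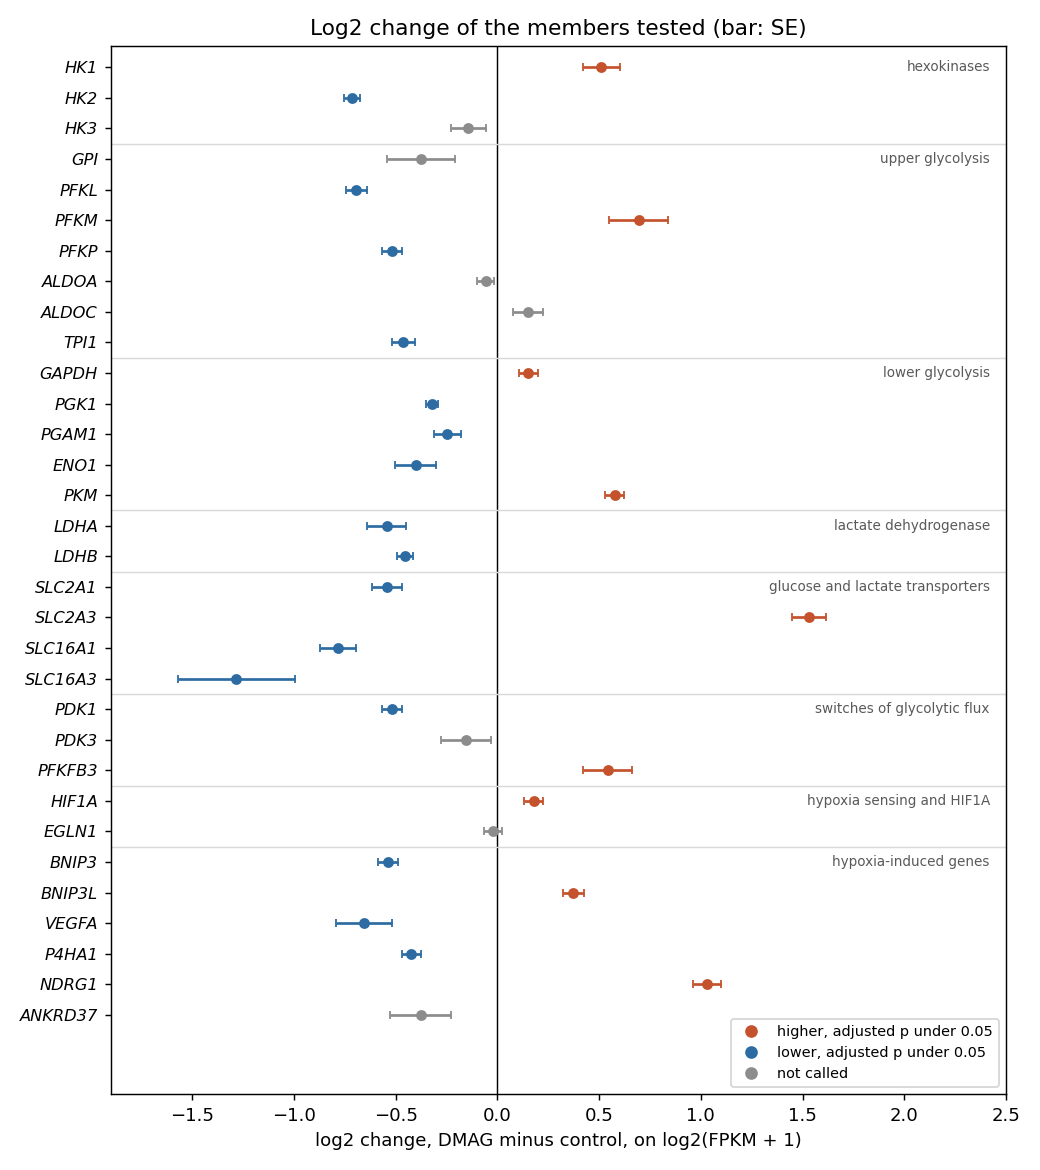
Log2 change (DMAG minus control, on log2(FPKM + 1)) of the 32 tested genes with its standard error, grouped by role; colour gives the call at adjusted p under 0.05. SLC2A3 lies farthest right at 1.53 and SLC16A3 farthest left at -1.28, and most points of the glycolytic steps lie left of 0.

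Hexokinases trap glucose in the cell by phosphorylating it, and HK2, the form known to be raised in many tumours, supplied nearly all of their mRNA. HK2 (ENSG00000159399) had 28.0, 29.9 and 29.9 FPKM in DMAG cells and 49.3, 48.3 and 48.2 FPKM in controls. The groups did not overlap, and HK2 fell 1.66-fold (log2 change -0.71, SE 0.0387, limma adjusted p 7.3e-05). HK1, the form found in most tissues, had 1.45, 1.17 and 1.18 FPKM in DMAG cells and 0.552, 0.494 and 0.729 FPKM in controls. It rose 2.14-fold at a level far below that of HK2 (log2 change 0.51, SE 0.0908, limma adjusted p 0.0048). HK3, a myeloid form, had 0.564, 0.617 and 0.397 FPKM in DMAG cells and 0.656, 0.625 and 0.764 FPKM in controls and did not pass, although the groups did not overlap (limma adjusted p 0.22). The 3 hexokinases summed to 31.1 ± 0.899 FPKM in DMAG cells and 49.9 ± 0.585 FPKM in controls (SD, n = 3 each).

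The promoters of 4 members are shown because they are known to be induced through HIF-1 and yet moved in both directions here: HK2, LDHA and BNIP3 fell and PKM rose. Each run is the 250 bases before the most upstream start listed by RefSeq (GRCh38.p14), 5′ to 3′ on the gene's strand, with every match to the core of the hypoxia response element, ACGTG or GCGTG on either strand (CACGT or CACGC when read on the other), in capitals. Matches may overlap the palindrome CACGTG, which other factors read. HK2 is at chr2:74833877-74834126 on the plus strand, LDHA at chr11:18394313-18394562 on the plus strand, BNIP3 at chr10:131981924-131982173 on the minus strand and PKM at chr15:72231191-72231440 on the minus strand.
HK2: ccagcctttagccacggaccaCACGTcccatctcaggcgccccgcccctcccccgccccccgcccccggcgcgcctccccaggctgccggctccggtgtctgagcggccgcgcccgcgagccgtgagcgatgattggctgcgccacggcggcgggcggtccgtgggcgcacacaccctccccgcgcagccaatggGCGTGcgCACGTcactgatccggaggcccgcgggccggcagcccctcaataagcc
LDHA: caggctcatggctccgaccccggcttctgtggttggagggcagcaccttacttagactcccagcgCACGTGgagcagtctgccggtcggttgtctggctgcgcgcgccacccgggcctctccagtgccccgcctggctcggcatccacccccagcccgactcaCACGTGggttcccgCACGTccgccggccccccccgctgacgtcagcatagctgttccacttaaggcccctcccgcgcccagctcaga
BNIP3: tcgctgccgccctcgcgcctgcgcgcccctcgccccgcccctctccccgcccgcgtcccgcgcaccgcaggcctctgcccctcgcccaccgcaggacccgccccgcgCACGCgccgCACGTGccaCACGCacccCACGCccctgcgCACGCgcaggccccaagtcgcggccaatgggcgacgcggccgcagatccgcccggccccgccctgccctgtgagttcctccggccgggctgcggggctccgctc
PKM: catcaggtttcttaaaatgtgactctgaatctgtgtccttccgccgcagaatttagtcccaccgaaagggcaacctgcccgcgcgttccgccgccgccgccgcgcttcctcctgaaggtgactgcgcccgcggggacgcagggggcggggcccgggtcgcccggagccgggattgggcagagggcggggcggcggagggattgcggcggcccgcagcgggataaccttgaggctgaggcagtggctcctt
HK2 held 3 matches, LDHA 5 with 2 CACGTG, BNIP3 6 with 1 CACGTG, and PKM 0. Bases outside these 250 were not searched, so 0 matches does not mean that a gene lacks a site. Of the 30 members with an entry, 18 (60.0%) held at least 1 match, as did 59.8% of the 8295 tested genes with an entry and 43.1% of all 27305 entries. By call, a match was present in 3 of 6 members that rose, 7 of 14 that fell and 6 of 7 that did not pass. The share among members was thus close to that of all tested genes, and members with a match were found in both directions of change. NDRG1, SLC2A3, SLC16A1, BNIP3L and VEGFA had no entry.

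In the upper steps, which spend ATP to make a doubly phosphorylated sugar and split it, 3 of 7 tested genes fell and 1 rose. Phosphofructokinase is the committed, tightly regulated step. Its liver form PFKL had 33.5, 36.7 and 37.2 FPKM in DMAG cells and 59.7, 55.9 and 59.7 FPKM in controls, and its platelet form PFKP had 29.1, 26.2 and 26.5 FPKM in DMAG cells and 39.1, 40.0 and 39.2 FPKM in controls. Both fell without overlap, PFKL 1.63-fold and PFKP 1.45-fold (limma adjusted p 2.1e-04 for PFKL and 3.9e-04 for PFKP). The muscle form PFKM had 1.62, 2.21 and 1.71 FPKM in DMAG cells and 1.11, 0.567 and 0.619 FPKM in controls. It rose 2.41-fold at its low level (log2 change 0.69, limma adjusted p 0.0088). PFKM had 3 different leading transcripts over the libraries. The most abundant, ENST00000340802, held 1.51, 0.104 and 0.0496 FPKM in DMAG cells and 0, 0.523 and 0.319 FPKM in controls. That transcript alone was too low for the test. Triose-phosphate isomerase, TPI1, which interconverts the products of the split, had 323, 334 and 370.3 FPKM in DMAG cells and 472, 472 and 470.2 FPKM in controls. TPI1 fell 1.38-fold (limma adjusted p 0.0011), and its 3 controls lay within a few FPKM of one another.

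The other upper enzymes did not pass. GPI, the isomerase of glucose 6-phosphate, had 216, 148 and 207 FPKM in DMAG cells and 209, 255 and 272 FPKM in controls, with overlapping groups (log2 change -0.38, SE 0.167, limma adjusted p 0.11). ALDOA, the main aldolase, which splits the sugar, had 523, 546 and 513 FPKM in DMAG cells and 557, 531 and 557 FPKM in controls, again overlapping (limma adjusted p 0.31). ALDOC, the brain form, stayed near 2 FPKM in both groups, at 2.10 ± 0.0593 FPKM in DMAG cells and 1.79 ± 0.199 FPKM in controls (SD, n = 3 each; limma adjusted p 0.14). Summed over the 7 upper-step genes the level was 1127 ± 31.9 FPKM in DMAG cells and 1366 ± 31.6 FPKM in controls.

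The lower steps, which make ATP and pyruvate, showed both directions. Phosphoglycerate kinase PGK1, the first ATP-making step, had 133, 136 and 135 FPKM in DMAG cells and 171, 168 and 167 FPKM in controls. It fell 1.25-fold without overlap (log2 change -0.32, limma adjusted p 3.9e-04). Pyruvate kinase PKM, the last step and the second to make ATP, had 832, 837 and 809.6 FPKM in DMAG cells and 544, 586 and 533 FPKM in controls. PKM rose 1.49-fold, again without overlap (log2 change 0.58, SE 0.0482, limma adjusted p 2.8e-04). Between them, the mutase PGAM1 had 235, 234 and 216 FPKM in DMAG cells and 295, 259.8 and 259 FPKM in controls and fell 1.19-fold (limma adjusted p 0.023). The fall of PGAM1 did not pass without the third DMAG library (adjusted p 0.064) or after rescaling to the mean sum (0.14).

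Enolase ENO1, which makes phosphoenolpyruvate, had 1002, 1263 and 1289 FPKM in DMAG cells and 1546, 1574 and 1541 FPKM in controls. All DMAG libraries were below all controls, the first DMAG library lowest, and ENO1 fell 1.31-fold (log2 change -0.40, limma adjusted p 0.018). Without the second control the adjusted p was 0.055. GAPDH, the dehydrogenase that makes NADH and a common reference transcript, was the most abundant member, with 2085, 2101 and 2078 FPKM in DMAG cells and 1817, 1901 and 1921 FPKM in controls. It rose 1.11-fold (log2 change 0.15, SE 0.0458, limma adjusted p 0.035), and the adjusted p lay between 0.045 and 0.092 when each library was left out, passing only without the first control. ENO2, the neuronal enolase, had 0.528, 0.400 and 0.306 FPKM in DMAG cells and 0.156, 0.192 and 0.154 FPKM in controls and was not tested. The lower steps as a whole, led by GAPDH, ENO1 and PKM, summed to 4462 ± 153 FPKM in DMAG cells and 4428 ± 58.0 FPKM in controls.

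Lactate dehydrogenase fell in both of its subunits. LDHA, the muscle-type subunit tied to lactate formation, had 113, 120.4 and 118 FPKM in DMAG cells and 199, 155 and 162 FPKM in controls. LDHB, the heart-type subunit and the more abundant here, had 408, 429.9 and 432 FPKM in DMAG cells and 573, 583 and 585 FPKM in controls. Neither overlapped between groups: LDHA fell 1.47-fold and LDHB fell 1.37-fold (limma adjusted p 0.0043 for LDHA and 2.8e-04 for LDHB). LDHA held 21.7 ± 0.216% of their summed FPKM in DMAG cells and 22.8 ± 2.56% in controls, overlapping shares. Taking the 18 glycolytic enzymes together, lactate dehydrogenases included, 17 were tested, 9 fell, 4 rose and 4 did not pass. Their summed level was 6161 ± 168 FPKM in DMAG cells and 6596 ± 52.1 FPKM in controls. As a share of all mRNA FPKM this was 1.82, 1.88 and 1.90% in DMAG cells and 1.87, 1.85 and 1.86% in controls, so the shares overlapped although 9 of the 17 tested enzymes fell.

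**Figure D2:**
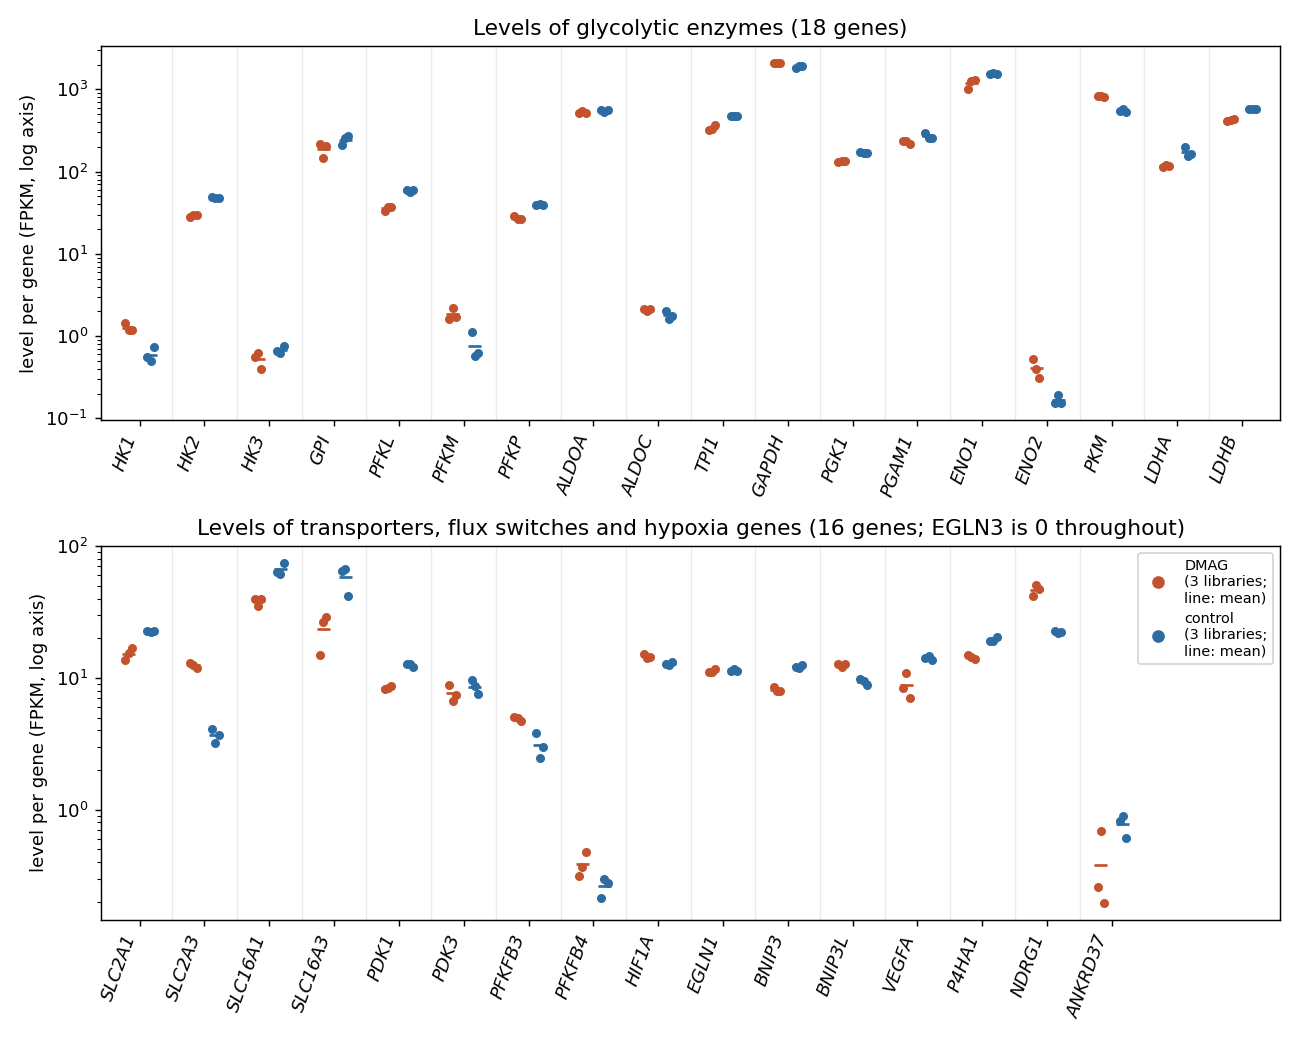
Level of each gene (FPKM, log axis) in every library, DMAG in orange at the left and control in blue at the right of each pair, with the group mean as a line. GAPDH stands highest at 2088 FPKM in DMAG cells and 1880 FPKM in controls, and the SLC2A3, PKM and NDRG1 points of DMAG cells lie above their controls while those of HK2, LDHB and SLC16A1 lie below.

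The largest log2 change in either direction among the 32 tested members was that of a carrier, SLC2A3 upward and SLC16A3 downward. SLC2A1 (GLUT1), the widespread glucose carrier and a classic HIF target, had 13.6, 15.5 and 16.7 FPKM in DMAG cells and 22.8, 22.3 and 22.7 FPKM in controls. SLC2A3 (GLUT3, ENSG00000059804), a high-affinity carrier of neurons and white blood cells, had 13.1, 12.4 and 11.8 FPKM in DMAG cells and 4.09, 3.21 and 3.70 FPKM in controls. SLC2A1 fell 1.48-fold (log2 change -0.54, limma adjusted p 0.0016), while SLC2A3 rose 3.39-fold (log2 change 1.53, SE 0.0833, limma adjusted p 7.4e-05). SLC2A3 therefore held 45.0 ± 3.76% of the FPKM of these carriers in DMAG cells and 13.9 ± 1.31% in controls. SLC2A14, a near-identical copy of SLC2A3, was at or below 0.0664 FPKM in every library, and how reads were divided between the copies is not given in the sources used here. Granulocyte and monocyte markers, of cells in which SLC2A3 is known, went both ways. Lysozyme (LYZ) was at 474, 435 and 424 FPKM in DMAG cells and 169, 169.5 and 165 FPKM in controls. The integrin ITGAM was at 4.92, 4.81 and 4.30 FPKM in DMAG cells and 1.66, 1.41 and 1.63 FPKM in controls. PRTN3 changed most among the tested markers of that list, downward, at 209, 231 and 243 FPKM in DMAG cells and 847, 939 and 962 FPKM in controls (log2 change -2.01). Of the 11 tested markers of that list 4 rose (LYZ, ITGAM, CLC and AZU1), 5 fell (PRTN3, EPX, CTSG, ELANE and MPO) and 2 did not pass (PRG2, and CD33, which passed without the first control at a limma adjusted p of 0.022). Their part in the SLC2A3 result was not tested.

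The monocarboxylate carriers that move lactate both fell. SLC16A1 (MCT1) had 39.5, 35.2 and 39.8 FPKM in DMAG cells and 63.6, 61.2 and 74.8 FPKM in controls. SLC16A3 (MCT4), the form known for lactate export from glycolytic cells, had 15.0, 26.7 and 29.1 FPKM in DMAG cells and 64.6, 66.9 and 42.1 FPKM in controls. Neither overlapped, although SLC16A3 spread widely within each group: SLC16A1 fell 1.74-fold (log2 change -0.78) and SLC16A3 fell 2.45-fold (log2 change -1.28, SE 0.286; limma adjusted p 7.8e-04 for SLC16A1 and 0.012 for SLC16A3). The adjusted p of SLC16A3 was 0.062 when its most abundant transcript alone was used. All 4 carriers summed to 89.5 ± 8.14 FPKM in DMAG cells and 151 ± 6.44 FPKM in controls.

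The mix of related forms was also compared within each step. HK1 held 4.09 ± 0.633% of hexokinase FPKM in DMAG cells and 1.19 ± 0.246% in controls. PFKM held 2.84 ± 0.482% of phosphofructokinase FPKM in DMAG cells and 0.775 ± 0.295% in controls. The PFKM difference, 2.07 points (DMAG minus control), was 0.81 points when only the most abundant transcript of each gene was used. PFKL, the leading phosphofructokinase in both groups, held 55.1 ± 2.59% in DMAG cells and 59.2 ± 1.13% in controls. This difference, -4.09 points (DMAG minus control), was -0.02 points when only the most abundant transcript of each gene was used. Of 14 shares tested, 9 did not overlap and had p = 0.10 by the two-sided exact permutation test. This is the smallest p that 3 against 3 allows, so none could pass a threshold of 0.05 (0.16 when adjusted over the 14). The 9 include very small differences: ALDOA held 99.60% in DMAG cells and 99.67% in controls, and ENO1 99.96% and 99.99%. HK1 and HK2 are both among them, as are PFKL and PFKM, and shares within a family depend on one another. How often shares of other gene families fail to overlap was not computed, so the count has no background beside it. With the most abundant transcript of each gene in place of the sum, 6 shares did not overlap.

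**Figure D3:**
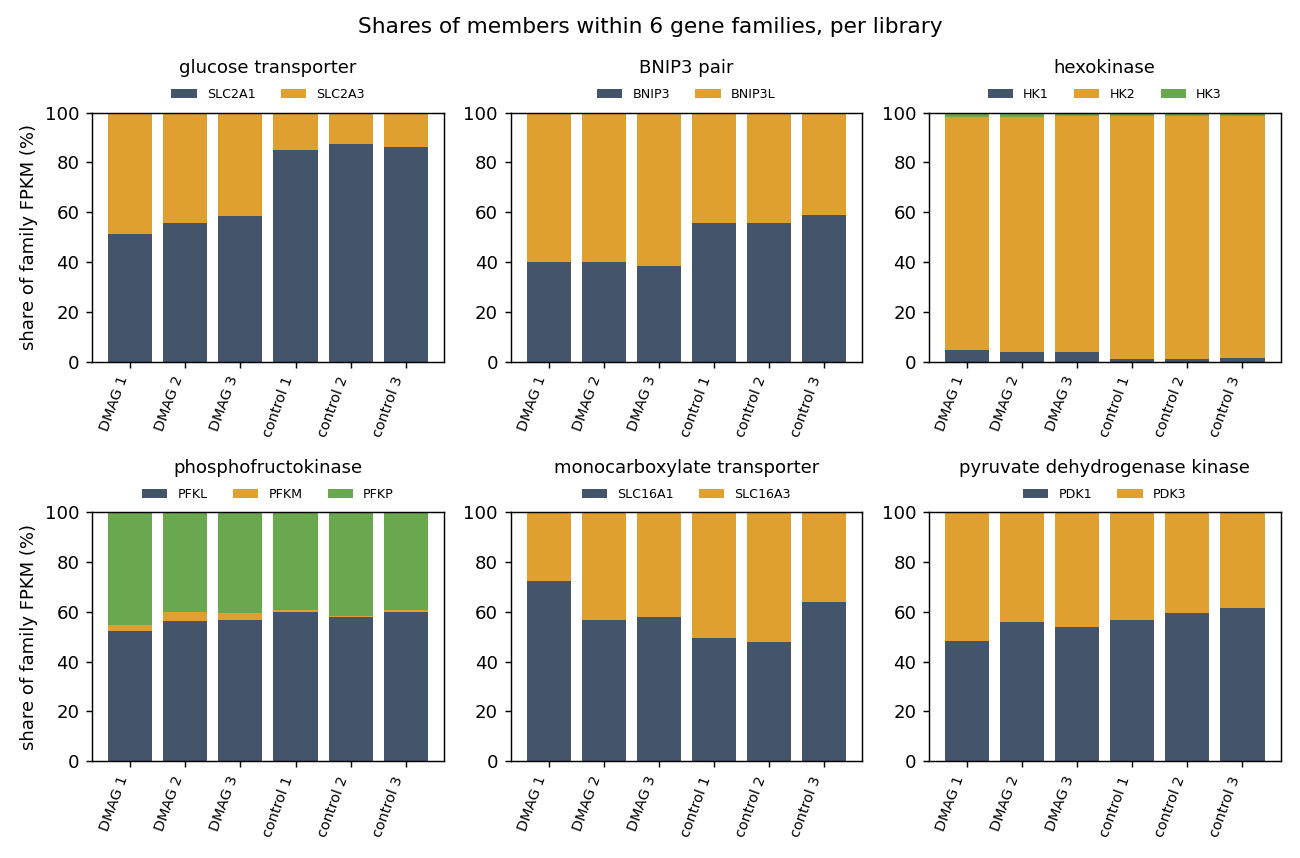
Stacked bars give the share (percent) of the summed FPKM of related genes held by each member in each library, with the 3 DMAG libraries left of the 3 controls. The SLC2A3 share stands at 45.0% in DMAG cells against 13.9% in controls, and the BNIP3 share at 39.5% in DMAG cells against 56.6% in controls.

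Genes that set the flow through the pathway also split. PDK1, a kinase that blocks pyruvate dehydrogenase, had 8.24, 8.41 and 8.69 FPKM in DMAG cells and 12.8, 12.7 and 12.1 FPKM in controls. It fell 1.48-fold (log2 change -0.52, limma adjusted p 3.7e-04). Its relative PDK3 had 8.87, 6.62 and 7.42 FPKM in DMAG cells and 9.70, 8.60 and 7.49 FPKM in controls, which overlapped (limma adjusted p 0.35). PFKFB3 makes fructose 2,6-bisphosphate, the strongest activator of phosphofructokinase, and had 5.05, 4.96 and 4.72 FPKM in DMAG cells and 3.81, 2.48 and 2.99 FPKM in controls. PFKFB3 rose 1.59-fold without overlap (log2 change 0.54, limma adjusted p 0.012). PFKFB4, a related enzyme, had 0.311, 0.370 and 0.476 FPKM in DMAG cells and 0.215, 0.298 and 0.279 FPKM in controls, too low for the test.

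The oxygen-sensing genes differed by small amounts. HIF1A mRNA had 15.2, 14.1 and 14.4 FPKM in DMAG cells and 12.8, 12.4 and 13.1 FPKM in controls, and rose 1.14-fold (log2 change 0.18, SE 0.0473, limma adjusted p 0.022). That call did not pass without the first control (0.053), the second control (0.069) or the first DMAG library (0.064). HIF-1 is controlled mainly through its protein, which these libraries do not measure. EGLN1, its main prolyl hydroxylase, had 11.0, 11.1 and 11.6 FPKM in DMAG cells and 11.2, 11.8 and 11.2 FPKM in controls and did not pass (log2 change -0.02, SE 0.0456, limma adjusted p 0.73). EGLN3, a hydroxylase that is itself hypoxia-induced, was listed at 0 in all 6 libraries.

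The hypoxia-induced members went both ways, 3 down and 2 up. BNIP3, which drives removal of mitochondria by autophagy, had 8.46, 7.97 and 7.93 FPKM in DMAG cells and 12.2, 11.9 and 12.6 FPKM in controls. BNIP3L (NIX), its relative known for clearing mitochondria from maturing red cells, had 12.6, 12.0 and 12.7 FPKM in DMAG cells and 9.77, 9.53 and 8.83 FPKM in controls. BNIP3 fell 1.51-fold and BNIP3L rose 1.33-fold, neither with overlap (limma adjusted p 3.5e-04 for BNIP3 and 0.0020 for BNIP3L), and BNIP3 held 39.5 ± 0.865% of their FPKM in DMAG cells and 56.6 ± 1.92% in controls. VEGFA, the growth factor of blood vessels, had 8.41, 10.9 and 7.05 FPKM in DMAG cells and 14.2, 14.7 and 13.7 FPKM in controls and fell 1.62-fold (limma adjusted p 0.0091). P4HA1, a prolyl hydroxylase of collagen, had 14.8, 14.4 and 13.8 FPKM in DMAG cells and 19.2, 19.2 and 20.3 FPKM in controls and fell 1.36-fold (limma adjusted p 6.9e-04).

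NDRG1, a gene raised by hypoxia and by differentiation in many cell types, had 42.0, 50.6 and 47.5 FPKM in DMAG cells and 22.9, 21.9 and 22.2 FPKM in controls. Every DMAG library was well above every control, and NDRG1 rose 2.09-fold (log2 change 1.03, SE 0.0701, limma adjusted p 1.4e-04). ANKRD37, a small HIF target, had 0.258, 0.686 and 0.197 FPKM in DMAG cells and 0.817, 0.898 and 0.611 FPKM in controls. It reached the mean of 0.5 FPKM through the controls alone, where it was higher, so its test follows a filter that favoured a difference. Its second DMAG library lay within the control range and it did not pass (log2 change -0.38, limma adjusted p 0.081); without that library the log2 change was -0.53 and the limma adjusted p 0.014.

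The same gene was sometimes assigned to different transcripts in different libraries. Of the 34 members with any signal, 24 had the same leading transcript in all 6 libraries and 10 did not. For NDRG1, ENST00000323851 held 2.44, 47.7 and 45.0 FPKM in DMAG cells and 21.6, 21.0 and 21.1 FPKM in controls, while ENST00000414097 held 36.6 FPKM in the first DMAG library. The gene sum was high in all 3 DMAG libraries, but with the leading transcript alone its log2 change was -0.17 and no longer passed. For ENO1, ENST00000234590 held 604, 1238 and 1271 FPKM in DMAG cells and 1521, 1548 and 1522 FPKM in controls, with a further 389.9 FPKM on ENST00000646539 in the first DMAG library, and the leading transcript alone did not pass (log2 change -0.64, limma adjusted p 0.18). For LDHA, ENST00000379412 held 57.4, 94.5 and 82.6 FPKM in DMAG cells and 160.1, 0 and 0 FPKM in controls, and its own log2 change was 3.83 (limma adjusted p 0.24), opposite in sign to that of the gene sum. VEGFA likewise did not pass with its leading transcript alone (log2 change -0.36, limma adjusted p 0.74). These genes are therefore described by their sums, and no change of isoform is drawn from the transcript values.

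**Figure D4:**
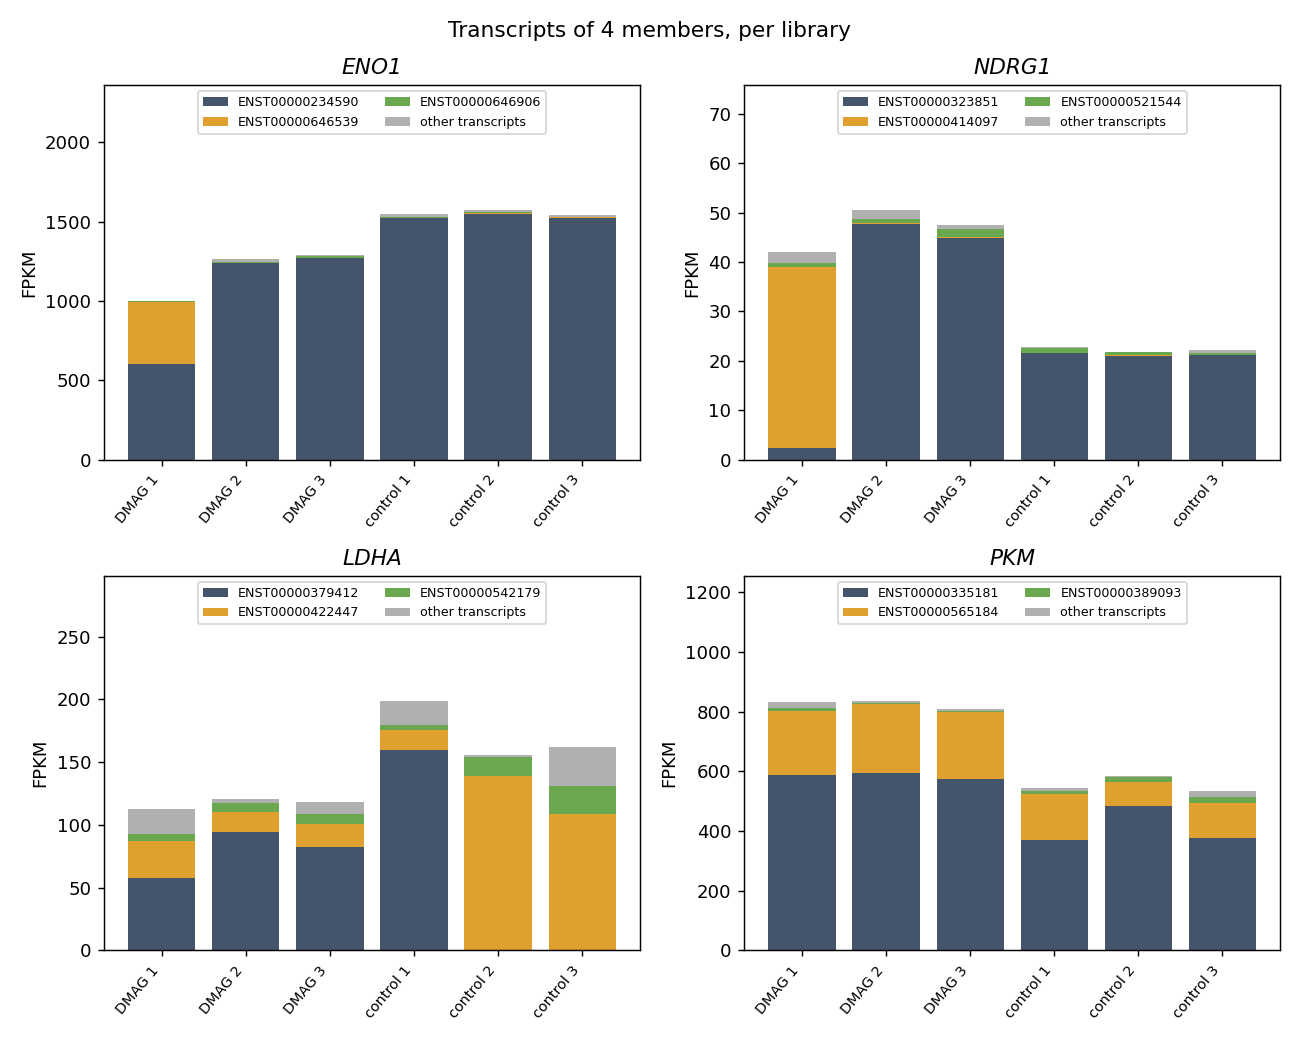
Transcript levels (FPKM) of ENO1, NDRG1, LDHA and PKM in each library, the 3 DMAG libraries left of the 3 controls, with the segments of a bar standing for transcripts. In the first DMAG library the main segment of NDRG1 is another transcript than elsewhere and ENO1 has a large second segment, while the total heights of NDRG1 are above the controls in all 3 DMAG libraries.

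PKM was among the 24 members, ENO1 included, with the same leading transcript in all libraries. ENST00000335181 held 588, 595 and 574 FPKM in DMAG cells and 372, 482 and 376 FPKM in controls, without overlap. ENST00000565184 held 213, 233 and 227 FPKM in DMAG cells and 154, 83.7 and 117 FPKM in controls. Both were thus higher in every DMAG library than in any control. Many glycolytic genes, among them GAPDH, PGAM1, ENO1, LDHA, LDHB, TPI1, PGK1, ALDOA and PKM, have processed copies elsewhere in the genome, and how reads that fit a gene and its copy were shared is not given in the sources used here, so their levels are uncertain to that extent.

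Genes around the pathway were examined in further lists, whose counts of calls stand beside 22.4% higher and 26.1% lower over all genes tested. Of 21 other glycolysis genes, 9 were tested, 2 rose and 2 fell; PGM2, which feeds sugars from nucleosides into the pathway, fell 1.44-fold (33.8 ± 0.324 FPKM in DMAG cells and 48.7 ± 0.586 FPKM in controls, SD, n = 3 each; limma adjusted p 9.2e-05). TIGAR, which lowers fructose 2,6-bisphosphate and so opposes PFKFB3, rose 1.45-fold (limma adjusted p 0.0033). ENO3, the muscle enolase, had 9.90, 5.40 and 1.89 FPKM in DMAG cells and 0.473, 0.548 and 0.729 FPKM in controls and rose (log2 change 1.89, limma adjusted p 0.015), with no call when its leading transcript alone was used (limma adjusted p 0.47). The DMAG libraries of ENO3 differed several-fold among themselves. GALM, which interconverts forms of galactose and glucose, fell 1.25-fold (limma adjusted p 0.046), a call lost whenever any library was left out (adjusted p 0.057 to 0.13).

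Of 20 other transporters and their regulators, 11 were tested, 6 fell and 1 rose, beside 26.1% lower and 22.4% higher over all genes. TXNIP, an arrestin that pulls glucose carriers off the cell surface and is itself induced by glucose, had 15.4, 17.3 and 18.0 FPKM in DMAG cells and 45.9, 43.5 and 48.0 FPKM in controls and fell 2.71-fold (log2 change -1.39, limma adjusted p 5.1e-05). Its relative ARRDC4 fell 2.05-fold, at 2.07 ± 0.166 FPKM in DMAG cells and 4.24 ± 0.176 FPKM in controls (SD, n = 3 each; limma adjusted p 3.1e-04). Basigin, BSG, the chaperone that brings SLC16A1 and SLC16A3 to the membrane, had 179, 181 and 177 FPKM in DMAG cells and 217, 218 and 221 FPKM in controls and fell 1.22-fold (limma adjusted p 5.8e-04). SLC16A7 (MCT2), a further lactate and pyruvate carrier, fell 1.63-fold (limma adjusted p 0.0022).

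Of 28 genes of pyruvate dehydrogenase and the citric acid cycle, 26 were tested, 13 fell and 1 rose, a median log2 change of -0.17. For this and the next list, the shares over all genes tested were 26.1% lower and 22.4% higher. Citrate synthase, CS, which opens the cycle, had 83.0, 81.7 and 83.6 FPKM in DMAG cells and 120.0, 132 and 125 FPKM in controls and fell 1.52-fold (limma adjusted p 1.7e-04; log2 change 0.02 and no call with its leading transcript alone). DLAT, the core of pyruvate dehydrogenase, fell 1.39-fold, fumarase FH 1.34-fold and the isocitrate dehydrogenase IDH2 1.32-fold (limma adjusted p 1.8e-04 for DLAT, 3.4e-04 for FH and 8.9e-04 for IDH2). In the pentose phosphate pathway, which branches off at glucose 6-phosphate to make NADPH and ribose, 10 of 11 genes were tested, 2 rose and 4 fell. PGD, its decarboxylating dehydrogenase, rose 1.33-fold and the transketolase TKT 1.26-fold, while the ribose phosphate synthetases PRPS2 and PRPS1 fell 1.54-fold and 1.19-fold (limma adjusted p 5.2e-04 for PGD, 7.2e-04 for TKT, 8.8e-04 for PRPS2 and 0.011 for PRPS1). With the leading transcript alone neither synthetase passed (0.23 for PRPS2 and 0.062 for PRPS1), and PRPS1 also did not pass after rescaling to the mean sum (0.054).

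Among 15 genes of gluconeogenesis and glycogen, 10 were tested, 4 rose and 5 fell, beside 22.4% higher and 26.1% lower over all genes tested. Of the 4, PYGM averaged 1.42 FPKM in DMAG cells and 0.404 FPKM in controls. It reached the mean of 0.5 FPKM through the DMAG libraries alone, so its test follows a filter that favoured a difference. FBP1, which runs the phosphofructokinase step backwards, had 8.23, 7.82 and 7.51 FPKM in DMAG cells and 3.48, 2.79 and 2.99 FPKM in controls and rose 2.54-fold (limma adjusted p 1.6e-04). PCK2, the mitochondrial enzyme that makes phosphoenolpyruvate, had 3.31, 3.64 and 3.27 FPKM in DMAG cells and 8.53, 8.14 and 8.18 FPKM in controls and fell 2.43-fold (limma adjusted p 6.9e-05). Glycogen synthase GYS1 fell 1.69-fold and the branching enzyme GBE1 rose 1.41-fold (limma adjusted p 1.1e-04 for GYS1 and 2.1e-04 for GBE1). The list therefore held changes in both directions for enzymes that build glucose or glycogen.

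Of 17 genes of the HIF machinery, 14 were tested, 7 rose and 1 fell, with a median log2 change of 0.11. Over all genes tested 22.4% rose and 26.1% fell, which also stands beside the hypoxia-induced genes that follow. ARNT, the partner of HIF1A, rose (log2 change 0.36), and HIF1AN and CITED2, which both hold back transcription by HIF, rose 1.36-fold and 1.45-fold (limma adjusted p 0.0017 for ARNT, 5.4e-04 for HIF1AN and 0.0015 for CITED2). ARNT lost its call with its leading transcript alone, at a log2 change of 1.84 (limma adjusted p 0.27). SIAH2, a ubiquitin ligase that removes prolyl hydroxylases, fell 1.42-fold (limma adjusted p 0.0024). Of 41 other hypoxia-induced genes, 25 were tested, 10 fell and 4 rose, with a median of -0.14. DDIT4 (REDD1), an inhibitor of mTORC1 raised by hypoxia and other stresses, had 28.7, 28.3 and 30.5 FPKM in DMAG cells and 71.1, 73.1 and 68.8 FPKM in controls and fell 2.43-fold (limma adjusted p 2.5e-05). VLDLR, a lipoprotein receptor, fell 1.58-fold, and the histone demethylase KDM4B rose 1.36-fold (limma adjusted p 2.6e-04 for VLDLR and 7.7e-04 for KDM4B), KDM4B with no call when its leading transcript alone was used (0.55). KCTD11 had 1.10, 1.19 and 1.19 FPKM in DMAG cells and 0.198, 0.274 and 0.103 FPKM in controls (limma adjusted p 4.1e-04). It reached the mean of 0.5 FPKM through the DMAG libraries alone, where it was higher, so its test follows a filter that favoured a difference. CA9, a HIF target used as a marker of hypoxia, was listed at 0 in every library, and EPAS1, which encodes HIF2A, was at or below 0.0663 FPKM. Among the 16 hypoxia-induced genes of that list below the filter, ADM, ANGPTL4, EPO, HMOX1, P4HA2 and PPFIA4 were higher in every DMAG library than in any control. The others overlapped or were at 0. These levels were low, HMOX1 the highest at a mean of 0.631 FPKM in DMAG cells and 0.168 FPKM in controls, and none was tested.

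**Figure D5:**
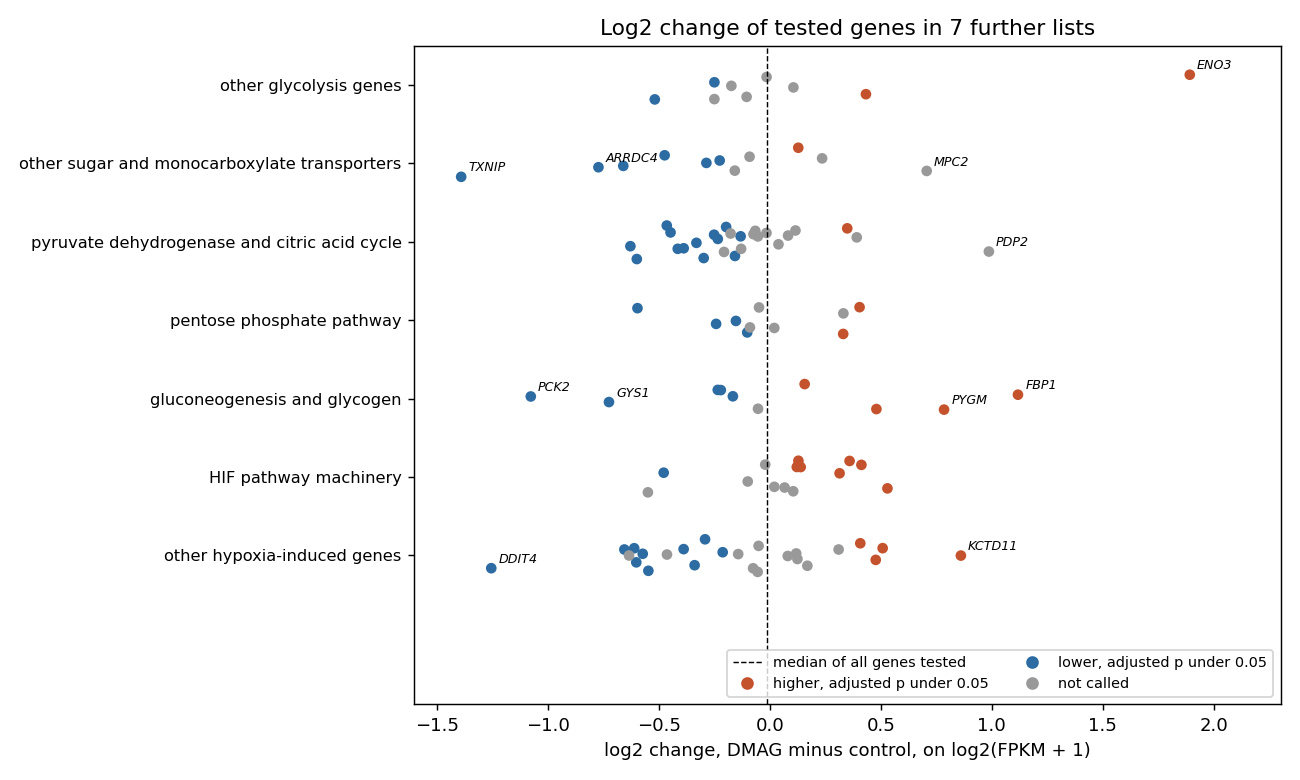
Log2 change (DMAG minus control, on log2(FPKM + 1)) of the tested genes of 7 further lists, coloured by call, with the median of all genes tested as a dashed line. TXNIP at -1.39 and DDIT4 at -1.25 lie farthest to the left and ENO3 at 1.89 farthest to the right.

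The small RNA libraries, with 4303596 to 6003077 miRNA reads each, hold the miRNA best known from hypoxia. It is shown with its seed, bases 2 to 8, in capitals; RefSeq (GRCh38.p14) places the mature arm at chr11:568112-568133 on the minus strand.
hsa-miR-210-3p: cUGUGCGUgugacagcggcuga
This arm had 33, 13 and 31 reads in DMAG cells and 48, 33 and 60 reads in controls, or 6.58, 2.85 and 6.42 CPM (counts scaled to library size) in DMAG cells and 9.45, 6.79 and 9.78 CPM in controls. In CPM every DMAG library was below every control, by a small gap between 6.58 and 6.79 CPM. In reads the first DMAG library and the second control were equal, at 33. In edgeR's quasi-likelihood test over 583 miRNAs the log2 change was -0.71 with an adjusted p of 0.081, so it did not pass; 45.3% of the miRNAs tested did. Leaving out each library in turn gave log2 changes of -0.89 to -0.42, the smallest without the second DMAG library, and it passed in none. Without scaling beyond the library total it did pass, at a log2 change of -0.90 and an adjusted p of 0.029, but that setting moved miRNAs downward as a whole, with 79 called higher and 207 lower, against 125 higher and 139 lower with scaling. The other arm, hsa-miR-210-5p, had 0, 0 and 3 reads in DMAG cells and 1, 1 and 3 reads in controls and was not tested.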

How the data were processed

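RNA-Seq and small RNA libraries of DMAG-treated and control cells (3 of each kind per group) were grouped by their labels. The authors deposited mRNA levels as FPKM per transcript and miRNA levels as read counts; the submitters' processing notes name HISAT2 2.0.4, StringTie 1.3.3, Bowtie and the build GRCh38, with no order. The use of strand in counting is not given in the sources used here. Symbols matched 35 of 35 members. The members and all gene lists were chosen with earlier results of these data known. Every FPKM value was summed per gene, genes averaging 0.5 FPKM or more were kept, and log2(FPKM + 1) was tested with limma 3.58.1 (trend; R 4.3.3), so fold changes of low genes are understated on the log2 scale. Shares used the exact permutation test, and miRNA counts edgeR 4.0.16 (quasi-likelihood, TMM, minimum count 10), with miRNAs at 45.3% called. Benjamini-Hochberg adjustment ran over all genes or miRNAs tested, and over the 14 shares for the share tests. On simulated data with 200 genes changed by 1 on the log2 scale, limma recovered 90.0% among 10394 genes, and 6.74% of its calls were false; with 200 miRNAs so changed, edgeR recovered 84.5% among 583 miRNAs, with 2.87% false. Smaller changes were not simulated. The 200 genes were drawn from those with a control mean of log2(FPKM + 1) above 1, so recovery at lower levels is unknown. Noise was drawn independently for each gene, and 48.6% of genes were called in the data, so these rates may not hold there. The text names all members and, from each further list, up to 4 genes with the smallest p. Markers at 1 FPKM or more in a group are named too. ITGA2B, GATA1, CD14, CD68, CSF1R, SLC2A14, CA9, EPAS1, PYGM, ADM, ANGPTL4, EPO, HMOX1, P4HA2 and PPFIA4 were named after their values were seen. Alternatives were other pseudocounts (0.1), filters, scalings, the most abundant transcript, no trend, a replicate block, DESeq2 1.42.0 for miRNAs, and each library left out. Long noncoding RNAs and circular RNAs of these loci were not analysed here. No interval is given for FPKM because depth is unknown; the small RNA libraries held 4303596 to 6003077 miRNA reads.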

Additional observations from a re-analysis of the deposited data

How the results depend on the processing

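Of the 76 genes in these checks (32 tested members, 28 genes of further lists and 16 tested markers), all kept their direction and call with a pseudocount of 0.1 FPKM and with limma without trend. Members called ranged from 7 to 10 higher and 12 to 17 lower over the alternatives, against 9 and 16 with the values as deposited. With the most abundant transcript in place of the sum, 1586 genes rose and 1768 fell, 7 members rose and 12 fell, and 6 shares did not overlap. GPI (log2 change 0.66), LDHA (3.83), NDRG1 (-0.17) and CS (0.017) changed sign without passing. Calls were lost for ENO1, SLC16A3, VEGFA, ENO3, GALM, PRPS2, PRPS1, ARNT, KDM4B and EPOR. PFKM and ANKRD37 fell below the filter in that setting and were not tested. With libraries rescaled to a larger common sum, 3435 of 11203 genes rose and 1910 fell, and with libraries rescaled to their mean sum, added after the data were seen, 3221 of 10392 rose and 1862 fell; in both ALDOA (0.045) and EGLN1 (0.076 and 0.072) changed sign without passing, and PGAM1, GALM and PRPS1 lost their calls. With libraries scaled to the same median 2465 rose and 2580 fell, and GALM lost its call (0.055). Leaving out each library in turn gave 1903 to 2150 genes higher and 2303 to 2443 lower, 7 to 8 members higher and 15 to 17 lower, and 9 to 10 non-overlapping shares; the log2 change of EGLN1 ranged from -0.042 to 3.6e-04, the positive value without the second control. GAPDH, GALM and EPOR lost their calls without a filter (limma adjusted p 0.22, 0.083 and 0.060). For hsa-miR-210-3p the log2 change without scaling was -0.90 (edgeR adjusted p 0.029), DESeq2 gave -0.64 (adjusted p 0.15), and leaving out each library gave -0.89 to -0.42 (0.062 to 0.27). The cause of these differences was not tested. The fits that leave out a library also have fewer samples.

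Same-numbered replicates did not deviate together (correlations -0.0048, 0.043 and 0.027 in RNA libraries), so the numbers were not taken as pairs. With the replicate block 2053 genes rose and 2438 fell, 8 members rose and 16 fell, GAPDH, GALM and EPOR lost their calls, and hsa-miR-210-3p had a log2 change of -0.74 (edgeR adjusted p 0.052). For hsa-miR-210-3p the counts were 13 to 60 reads a library, and no depth can be given for FPKM.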
